A study of Homo sapiens with 21 samples.

Results

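The gene expression of 2 trastuzumab-resistant pools of BT474 cells, BT-TR1 and BT-TR2, was set against that of sensitive BT474 cells exposed to trastuzumab for 3 days. BT474 is an established line of human breast carcinoma cells in which ERBB2, the gene for the receptor HER2, is amplified. The libraries were those whose labels name BT-TR1, BT-TR2 or trastuzumab treatment, 9 of the 21 libraries in the series and 3 in each of its 7 groups. All 37355 genes of the count table were considered, and the 17650 that passed a filter on low counts were tested.

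BT-TR1 and BT-TR2 were cell pools, not single clones, labelled resistant to trastuzumab and kept without any treatment for 7 days before harvest. The trastuzumab-treated cells were parental BT474 cells, labelled sensitive to HER2 antibodies and given 10 µg/mL of trastuzumab for 3 days. All were grown in dishes in the same serum-containing medium. How resistance was selected is not given in the sources used here. The pools therefore differed from the treated cells both in their resistance and in the absence of antibody during their last days in culture, and the effects of the 2 cannot be told apart in this comparison. Untreated sensitive BT474 cells, which took no part in it, are given beside some results to show what the acute treatment did.

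Trastuzumab is an antibody to the extracellular part of HER2, a receptor tyrosine kinase that pairs with HER3 and signals through PI3K and AKT and through RAS and ERK. In sensitive cells, loss of that signal is known to lower cyclin D and MYC activity, to free the cyclin-dependent kinase inhibitors p21 and p27, to let FOXO transcription factors enter the nucleus, and to stop cells before division. Resistant cells are those that go on dividing in the presence of the antibody.

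BT-TR1 had 3583 genes higher (20.3% of those tested) and 3455 lower (19.6%) than trastuzumab-treated cells at an adjusted p under 0.05 by edgeR's quasi-likelihood test with Benjamini-Hochberg adjustment over all tested genes. In BT-TR2, 2058 genes were higher (11.7%) and 2033 lower (11.5%). With replicate number as a block, the BT-TR2 counts were 3956 higher and 3403 lower. Both pools were higher for 1431 genes (8.11% of those tested) and lower for 1392 (7.89%), and 9 genes (0.051%) were called in opposite directions. Of the genes higher in both, 394 were at least 2-fold higher in each pool, 108 at least 4-fold and 37 at least 8-fold. Of those lower in both, 551 were at least 2-fold lower in each pool, 106 at least 4-fold and 16 at least 8-fold. Both comparisons used the same 3 trastuzumab libraries and so were not independent of each other. Below, "higher", "lower", "rose" and "fell" are used of genes past this test, and "in both pools" of genes past it in each pool in the same direction.

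Gene levels are given as CPM, counts per 1e6 reads scaled to the normalized library size, for replicates 1, 2 and 3 in turn. Changes are log2 fold changes of a pool over trastuzumab-treated cells, with standard errors after the ±. The median log2 fold change over all tested genes was -0.03 in BT-TR1 and 0.03 in BT-TR2. CPM values take no account of transcript length, so they compare groups for 1 gene and not 1 gene with another. Where an adjusted p from an alternative fit is followed by a span, that span covers all alternatives, the test against a fold of 1.5 included. Genes described singly from a list mostly had the largest changes among its members called in both pools, and are not typical members. That choice makes a lack of overlap between groups likely, so it is no separate result.

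Library totals ran from 7939270 to 13432287 counts in BT-TR1, from 15186744 to 17886199 in BT-TR2 and from 20280460 to 20878152 with trastuzumab. Mitochondrially encoded genes took 33.3% of the counts of trastuzumab replicate 1 and 16.2% to 21.7% of the other 8 libraries, and the calls of genes described below that were lost or gained without that replicate are given. The labels do not say whether replicates came from separate cultures. The p-values therefore measure only the spread between these libraries, and the units of resistance were the 2 pools, not the libraries. Of the markers of luminal HER2-amplified cells, ERBB2 had between 3980 and 9070 CPM of library total in the 9 libraries and the luminal keratins KRT8, KRT18 and KRT19 were all detected. KRT5 and KRT14, which mark basal cells, had at most 3 and 1 counts in any library, the leukocyte gene PTPRC had 0, and CD68, PECAM1 and DCN, which mark macrophages, endothelium and fibroblasts, had at most 2, 2 and 1. Other markers of these kinds were detected in every library, the basal TP63 at 25 to 104 counts, the fibroblast gene COL1A1 at 120 to 674 and the endothelial genes VWF at 31 to 243 and CDH5 at 4 to 46. Their part in the results was not tested.

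The change in BT-TR1 varied with the GC content of the genes. Across 17554 genes, which are not independent replicates, the log2 fold change correlated with the GC content of the longest transcript at r = -0.395 in BT-TR1 and at 0.0472 in BT-TR2. With the genes in 10 equal bins, the median log2 fold change in the bin of lowest GC content (median 37.0%) was 0.349 in BT-TR1 and 0.006 in BT-TR2. In the bin of highest GC content (median 63.2%) it was -0.796 in BT-TR1 and 0.068 in BT-TR2. Genes higher in BT-TR1 had a median GC content of 42.6% and genes lower in BT-TR1 of 54.4%, against 47.6% for all tested genes, while genes called in both pools lay closer to the rest, at 45.4% where higher and 48.6% where lower. The part of GC content or library preparation in the BT-TR1 values was not tested, and calls of the genes described below that a fit corrected for GC content ended or added are given.

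**Figure D1:**
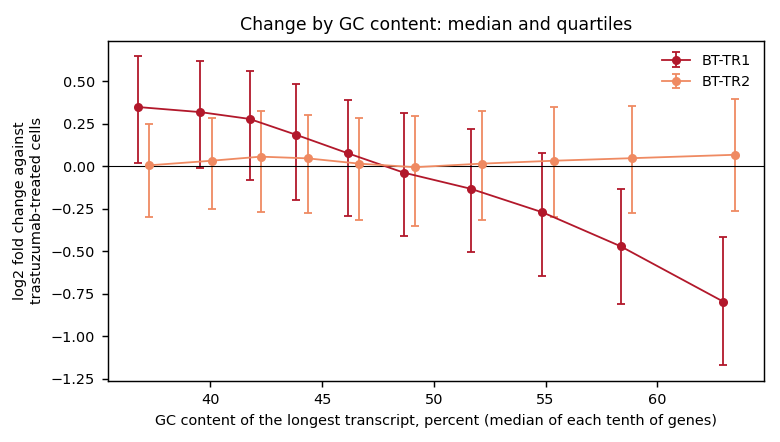
Change in each pool over trastuzumab-treated cells by GC content. The x axis is the median GC content, in percent, of each of 10 equal bins of the 17554 genes, and the y axis is the log2 fold change, with points at the median and bars to the quartiles. The BT-TR1 medians fall from 0.349 in the lowest bin to -0.796 in the highest, while the BT-TR2 medians stay between -0.005 and 0.068.

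Of the gene lists, mitosis had the largest share of members higher in both pools. Of 39 mitosis genes, 32 were higher in both pools than in trastuzumab-treated cells and none was lower, where 8.11% and 7.89% of all tested genes were higher and lower in both. The list's median log2 fold change was 1.20 in BT-TR1, with 37 of 39 genes higher, and 0.87 in BT-TR2, with 33 higher. The acute treatment had lowered 33 of these genes relative to untreated cells, where it lowered 3.78% and raised 3.71% of all tested genes, with a list median of -0.85. Beside medians of -0.0096 and -0.0024 over all tested genes, the list median against untreated cells was 0.33 in BT-TR1 and -0.04 in BT-TR2. In bulk RNA, more cells in mitosis and more of these transcripts per cell cannot be told apart. Without each library in turn, between 28 and 33 mitosis genes were higher in both pools, and 15 were when the change was tested against a fold of 1.5.

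Many mitosis genes carry a CCAAT box, bound by the factor NF-Y, and a cell cycle genes homology region (CHR), through which the DREAM and MuvB complexes hold the gene silent in resting cells. RefSeq (GRCh38.p14) gave the 250 bases before the start of 33 of the 39 genes. Of these promoters, 78.8% held CCAAT and 51.5% held TTTGAA, the CHR core, on either strand, and 45.5% held both. Over all 35116 promoters of the same length the shares were 32.0%, 13.3% and 4.69%, and over the 10069 of tested genes 35.1%, 8.22% and 3.33%. The promoters of 3 named mitosis genes are shown because the values of these genes are given next, written 5′ to 3′ on the gene's strand and ending at the base before its start, with each CCAAT (or ATTGG) and each TTTGAA (or TTCAAA) in capitals. BUB1 lies at chr2:110678064-110678313, minus strand, PLK1 at chr16:23678639-23678888, plus strand and NEK2 at chr1:211675622-211675871, minus strand. BUB1 and NEK2 held CCAAT alone and PLK1 both motifs. A match describes these letters and is not a measured binding site, and no match says only that the letters are not in this window.

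BUB1: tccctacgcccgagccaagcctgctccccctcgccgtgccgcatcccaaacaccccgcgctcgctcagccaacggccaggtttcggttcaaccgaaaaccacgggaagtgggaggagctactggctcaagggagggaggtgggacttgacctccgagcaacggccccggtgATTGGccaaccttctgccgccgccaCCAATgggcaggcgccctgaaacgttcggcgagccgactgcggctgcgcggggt
PLK1: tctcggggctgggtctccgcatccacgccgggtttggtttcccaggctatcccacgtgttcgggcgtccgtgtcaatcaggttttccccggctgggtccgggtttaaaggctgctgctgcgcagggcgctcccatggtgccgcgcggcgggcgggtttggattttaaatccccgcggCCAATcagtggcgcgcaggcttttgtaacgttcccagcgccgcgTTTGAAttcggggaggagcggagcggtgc
NEK2: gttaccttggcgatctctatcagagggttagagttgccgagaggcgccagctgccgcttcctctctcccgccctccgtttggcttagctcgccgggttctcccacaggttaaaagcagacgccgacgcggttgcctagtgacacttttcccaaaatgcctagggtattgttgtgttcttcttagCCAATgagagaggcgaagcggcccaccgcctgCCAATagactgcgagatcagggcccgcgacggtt

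AURKA, the mitotic kinase of spindle poles (ENSG00000087586.17, chromosome 20, 56369389 to 56392337), had 376, 375 and 434 CPM in BT-TR1, 327, 349 and 335 CPM in BT-TR2 and 112, 114 and 114 CPM in trastuzumab-treated cells. All 6 pool libraries lay above all 3 treated ones, by 1.80 ± 0.11 in BT-TR1 and 1.57 ± 0.11 in BT-TR2 on the log2 scale (edgeR adjusted p = 6.28e-10 and 5.33e-09). In untreated cells it had 193, 207 and 239 CPM, and both pools were above that level too (log2 0.89 ± 0.11 and 0.66 ± 0.11). BUB1, a kinase of the spindle checkpoint, had 89.2, 94.0 and 109 CPM in BT-TR1, 65.6, 72.7 and 75.3 CPM in BT-TR2 and 23.4, 30.0 and 30.8 CPM in trastuzumab-treated cells. Again the groups did not overlap, and the change was 1.79 ± 0.14 in BT-TR1 and 1.34 ± 0.14 in BT-TR2.

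PLK1, the polo-like kinase that drives entry into and passage through mitosis, had 49.6, 40.5 and 37.0 CPM in BT-TR1, 68.7, 45.9 and 47.3 CPM in BT-TR2 and 18.8, 15.0 and 16.5 CPM in trastuzumab-treated cells, a log2 fold change of 1.34 ± 0.19 in BT-TR1 and 1.69 ± 0.19 in BT-TR2. Unlike AURKA, its pool levels were close to the 54.0, 33.3 and 39.0 CPM of untreated cells, with log2 differences of 0.01 ± 0.19 and 0.36 ± 0.19 that did not pass the test. NEK2, a kinase of centrosome separation, averaged 34.9 ± 3.92 CPM in BT-TR1 and 28.4 ± 1.03 CPM in BT-TR2, against 11.2 ± 0.573 CPM with trastuzumab (SD, n = 3 each). MKI67, whose product coats mitotic chromosomes and is the Ki-67 proliferation marker, had 152, 237 and 192 CPM in BT-TR1, 119, 149 and 152 CPM in BT-TR2 and 56.5, 101 and 83.0 CPM in trastuzumab-treated cells. The groups did not overlap, and the log2 fold change was 1.27 ± 0.21 in BT-TR1 and 0.80 ± 0.21 in BT-TR2, but the BT-TR2 call was lost without trastuzumab replicate 1 (edgeR adjusted p = 0.0554, spanning 6.4e-08 to 0.452).

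**Figure D2:**
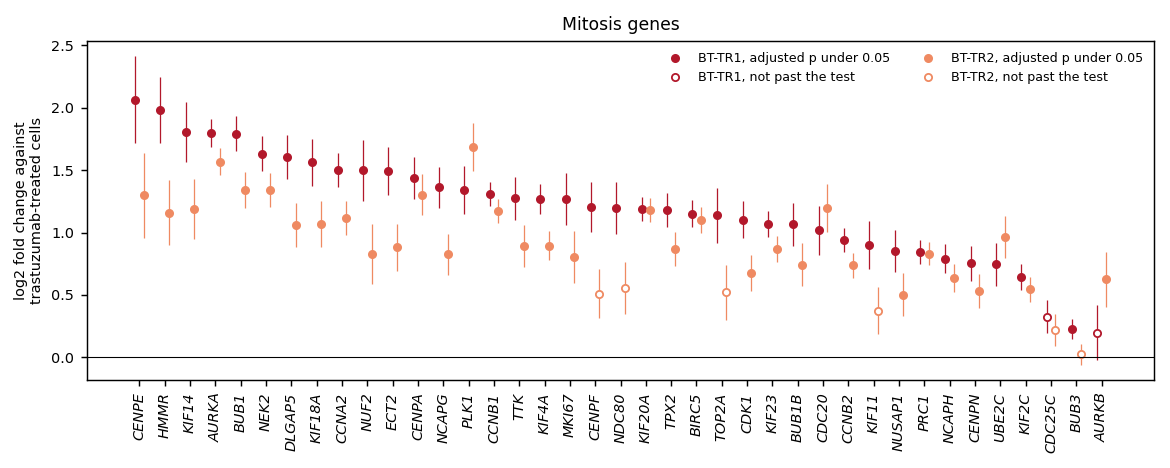
Log2 fold change over trastuzumab-treated cells of the 39 mitosis genes, ordered by their change in BT-TR1, with standard errors as bars and filled points for an adjusted p under 0.05. The y axis is in log2 units; the points of BT-TR1 and BT-TR2 lie side by side for each gene. In BT-TR1, 37 genes are past the test and in BT-TR2 33, all of them higher.

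Of 42 listed genes of DNA replication and S phase, 2 were higher and 1 lower in both pools, beside 8.11% and 7.89% of all tested genes. Of all tested genes, 20.3% were higher and 19.6% lower in BT-TR1, and 11.7% and 11.5% in BT-TR2. Of the list, BT-TR1 had 5 higher and 16 lower (median log2 -0.23), and BT-TR2 had 2 higher and 1 lower (median 0.09). Between the pools, 17 of these genes were higher and 2 lower in BT-TR2 than in BT-TR1, beside 9.64% and 8.09% of all tested genes. After GC correction, 14 were lower in BT-TR1 and 4 in both pools. With the block, 5 were higher and 4 lower in both, and by DESeq2 4 were higher. Trastuzumab itself had lowered 8 of the 42 relative to untreated cells, beside 3.78% of all tested genes.

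The gene lower in both pools was E2F2, an E2F activator of S phase genes, with 16.2, 15.7 and 13.3 CPM in BT-TR1, 21.8, 18.2 and 18.7 CPM in BT-TR2 and 29.6, 27.4 and 28.3 CPM in trastuzumab-treated cells. Its groups did not overlap (log2 -0.91 ± 0.13 in BT-TR1 and -0.54 ± 0.12 in BT-TR2). Those higher in both were RFC3 and RFC4, subunits of the clamp loader replication factor C. RFC3 changed by 0.48 ± 0.12 in BT-TR1 and 0.49 ± 0.12 in BT-TR2, its BT-TR1 call being lost after GC correction (log2 0.20, adjusted p = 0.117, spanning 0.000319 to 1). RFC4 changed by 0.47 ± 0.11 and 0.39 ± 0.11, the BT-TR2 call being lost without BT-TR2 replicate 3 (adjusted p = 0.0728, spanning 0.000251 to 1), without trastuzumab replicate 3 (0.0592) and with no filter (0.101).

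Among 14 tested G1 cyclins, kinases and inhibitors, CDKN1A alone was called in both pools, while 1 gene was higher in both after GC correction and 1 with the block. CDKN1A encodes p21, which blocks cyclin-dependent kinases, and had 8.16, 4.44 and 4.88 CPM in BT-TR1, 8.64, 7.36 and 8.08 CPM in BT-TR2 and 20.5, 10.3 and 16.4 CPM in trastuzumab-treated cells. Each treated library exceeded every pool library, and the log2 fold change was -1.41 ± 0.28 in BT-TR1 and -0.97 ± 0.27 in BT-TR2. This second call was lost without trastuzumab replicate 1 (adjusted p = 0.0757, spanning 3.18e-05 to 0.277). Untreated cells had 8.35, 3.31 and 6.26 CPM, and neither pool differed from them past the test (log2 -0.01 ± 0.29 and 0.43 ± 0.28). CCND1, cyclin D1, was at 293 ± 21.6 CPM in BT-TR1, 253 ± 9.36 CPM in BT-TR2 and 277 ± 21.8 CPM with trastuzumab (SD, n = 3 each), with no call in either pool.

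p53 target genes were more often lower than higher in the pools. Of 24 tested, 10 were lower in both pools and 0 higher, with medians of -0.55 in BT-TR1 and -0.49 in BT-TR2. Under scaling by library size alone 6 were lower in both, and 1 was higher in both after GC correction or with the block. Trastuzumab had raised 8 of the 24 over untreated cells and lowered none, beside 3.71% and 3.78% of all tested genes. FAS, a death receptor, had 1, 0 and 0 counts in BT-TR1, 0, 1 and 2 counts in BT-TR2 and 33, 22 and 47 counts with trastuzumab. Pool libraries were all at or near 0, and the ratio of the pooled scaled counts was 0.0179 (95% exact interval 0.000449 to 0.102) in BT-TR1 and 0.0339 (95% exact interval 0.00687 to 0.102) in BT-TR2, intervals that cover counting error only. AEN, an exonuclease that p53 induces in apoptosis, had 15.2, 14.2 and 13.99 CPM in BT-TR1, 21.8, 17.9 and 15.3 CPM in BT-TR2 and 46.7, 27.3 and 37.9 CPM in trastuzumab-treated cells. The pool libraries lay below every treated one, with log2 fold changes of -1.36 ± 0.24 in BT-TR1 and -1.02 ± 0.24 in BT-TR2. PLK3, a stress-responsive polo-like kinase, averaged 0.943 ± 0.121 CPM in BT-TR1, 0.828 ± 0.486 CPM in BT-TR2 and 3.23 ± 1.71 CPM with trastuzumab (SD, n = 3 each), and was lower in both pools. Its BT-TR1 log2 fold change was -1.78 ± 0.48, and -1.17 after GC correction.

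Genes that FOXO factors induce when PI3K is off were more often lower than higher. Of 28 tested, 11 were lower and 3 higher in both pools, with medians of -0.13 in BT-TR1 and -0.32 in BT-TR2. Where 5 or fewer members of a list were called in 1 direction, those outside the rule for named genes are given by their log2 fold changes in BT-TR1 and BT-TR2 and were named after their values were seen. Here the higher ones were PDK4, described below, KLF6 (0.64 ± 0.13 and 0.59 ± 0.13), a zinc finger factor, and SESN3 (1.16 ± 0.21 and 1.22 ± 0.20), a sestrin. Those 11 became 6 under scaling by library size alone, 7 with no filter, and 6 without BT-TR2 replicate 2 or without trastuzumab replicate 3, and 7 without BT-TR1 replicate 1 or BT-TR2 replicate 1. IRS2, an adaptor that links insulin receptors to PI3K, had 0.890, 1.39 and 1.06 CPM in BT-TR1, 2.22, 1.60 and 2.12 CPM in BT-TR2 and 5.72, 5.38 and 6.88 CPM in trastuzumab-treated cells. It was lower in every pool library than in any treated one (log2 -2.43 ± 0.25 in BT-TR1 and -1.60 ± 0.21 in BT-TR2). FBXO32, a ubiquitin ligase subunit and classical FOXO target in muscle, had 26.7, 25.1 and 27.8 CPM in BT-TR1, 16.3, 19.8 and 20.7 CPM in BT-TR2 and 62.4, 70.8 and 79.5 CPM in trastuzumab-treated cells, with changes of -1.42 ± 0.12 and -1.90 ± 0.12.

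IGF1R, the receptor for insulin-like growth factor 1, averaged 79.6 ± 5.07 CPM in BT-TR1 and 82.5 ± 9.82 CPM in BT-TR2, against 193 ± 30.4 CPM with trastuzumab (SD, n = 3 each), and both pools were also below untreated cells (log2 -1.04 ± 0.16 and -0.99 ± 0.16). PDK4, which inhibits pyruvate dehydrogenase and is a FOXO target, went the other way, with 3.34, 4.35 and 5.41 CPM in BT-TR1, 4.68, 4.02 and 5.13 CPM in BT-TR2 and 1.29, 1.56 and 1.41 CPM in trastuzumab-treated cells and no overlap between pools and treated cells. Its log2 fold change was 1.59 ± 0.25 in BT-TR1 and 1.68 ± 0.24 in BT-TR2.

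Of 19 tested genes of the PI3K and AKT core, 4 were lower and 0 higher in both pools, with medians of -0.17 and 0.0019. The BT-TR1 median was 0.01 after GC correction and the BT-TR2 median -0.14 without BT-TR2 replicate 1 and -0.06 without trastuzumab replicate 1. Those 4 were IRS2, IRS1, PIK3R1 and TSC1. PIK3R1, the regulatory subunit p85α, had 39.3, 41.1 and 47.6 CPM in BT-TR1, 34.8, 40.6 and 41.7 CPM in BT-TR2 and 68.4, 77.7 and 80.3 CPM in trastuzumab-treated cells (log2 -0.83 ± 0.12 in BT-TR1 and -0.95 ± 0.12 in BT-TR2). TSC1, which restrains mTORC1, changed by -0.76 ± 0.13 and -0.76 ± 0.13, and IRS1, the other insulin receptor adaptor, by -1.16 ± 0.16 and -0.62 ± 0.15. PIK3CA, the catalytic subunit p110α, differed by 0.35 ± 0.18 in BT-TR1 and 0.08 ± 0.18 in BT-TR2, without a call.

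Genes of lipid synthesis that were called in both pools were all higher. Of 19 tested genes of fatty acid synthesis, 7 were higher and 0 lower in both pools (medians 0.41 in BT-TR1 and 0.39 in BT-TR2), between 5 and 8 being higher without each library in turn. SCD, the desaturase that makes oleate, had 4039, 4669 and 4411 CPM in BT-TR1, 2711, 2655 and 3027 CPM in BT-TR2 and 1492, 1471 and 1151 CPM in trastuzumab-treated cells. Pool and treated libraries did not overlap, and SCD changed by 1.67 ± 0.15 in BT-TR1 and 1.03 ± 0.14 in BT-TR2. ME1, malic enzyme, which supplies NADPH for fatty acid synthesis, had 31.1, 30.3 and 35.6 CPM in BT-TR1, 25.01, 28.8 and 26.5 CPM in BT-TR2 and 7.18, 7.28 and 7.68 CPM in trastuzumab-treated cells, with changes of 2.13 ± 0.15 and 1.86 ± 0.15. It was above untreated cells in both pools as well (log2 1.72 ± 0.15 and 1.45 ± 0.15). ACSL3, an acyl-CoA synthetase, and LPIN1, a phosphatidate phosphatase, rose in both pools by smaller amounts, ACSL3 by 1.16 ± 0.16 and 0.66 ± 0.16 and LPIN1 by 1.01 ± 0.09 and 0.52 ± 0.09.

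Of 25 tested genes of cholesterol synthesis, 4 were higher and 0 lower in both pools, with medians of 0.28 and 0.26. In BT-TR1, 10 were higher and 3 lower, beside 20.3% and 19.6% of all tested genes. The 4 higher in both became 7 after GC correction, 8 with the block, and 2 without BT-TR2 replicate 2, BT-TR2 replicate 3 or trastuzumab replicate 2. Trastuzumab had lowered 15 relative to untreated cells, beside 3.78% of all tested genes. Set against untreated cells, the list median stood at -0.48 for BT-TR1 and -0.47 for BT-TR2. The medians over all tested genes were -0.0096 and -0.0024. STARD4, which carries cholesterol between membranes, had 36.3, 43.9 and 49.5 CPM in BT-TR1, 16.4, 21.7 and 21.5 CPM in BT-TR2 and 6.62, 7.48 and 8.01 CPM in trastuzumab-treated cells. All pool libraries exceeded the treated ones (log2 2.55 ± 0.18 in BT-TR1 and 1.43 ± 0.18 in BT-TR2). ACAT2, the acetyl-CoA thiolase at the start of the pathway, changed by 0.61 ± 0.12 and 0.68 ± 0.12. The BT-TR2 calls of the other two, IDI1 (log2 0.99 ± 0.17 and 0.55 ± 0.17) and HSD17B7 (0.68 ± 0.11 and 0.36 ± 0.11), depended on single libraries. That of IDI1 was lost without BT-TR2 replicate 2 (adjusted p = 0.0974, spanning 3.57e-06 to 1) or 3 (0.0686) and without trastuzumab replicate 1 (0.0919) or 2 (0.0714). That of HSD17B7 was lost without any 1 of the BT-TR2 libraries (adjusted p = 0.0643, spanning 0.00229 to 1, then 0.0671 and 0.0575 without replicates 2 and 3), without trastuzumab replicate 2 (0.0989) or 3 (0.0961), and after GC correction (0.0563).

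**Figure D3:**
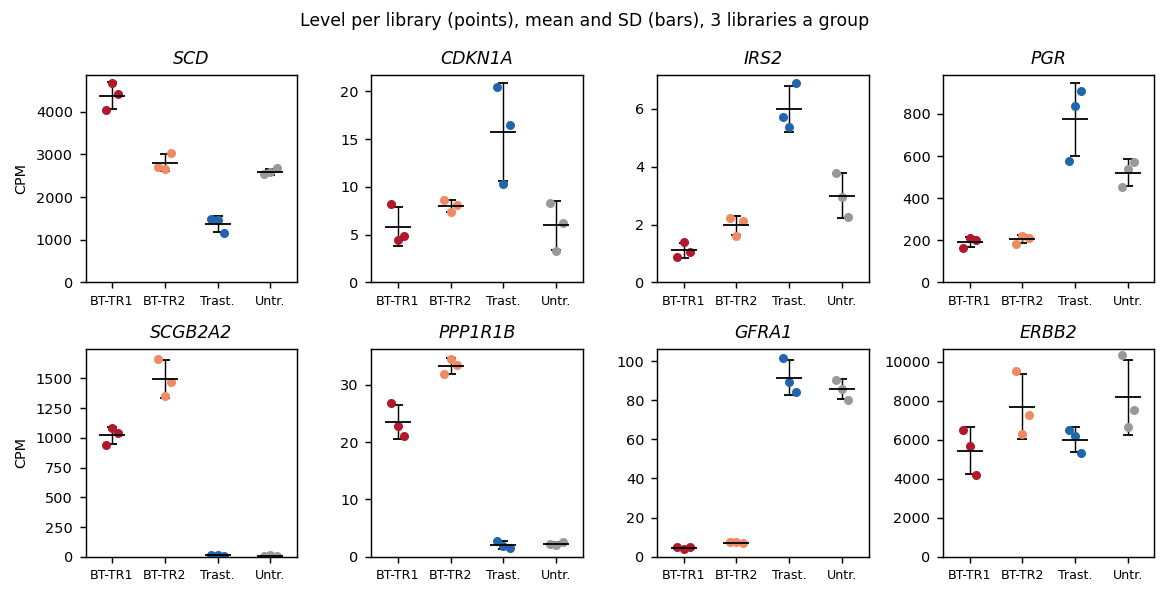
Level of 8 genes in each library (points), in CPM on linear axes that start at 0, with the mean and SD as bars, for BT-TR1, BT-TR2, trastuzumab-treated (Trast.) and untreated (Untr.) cells, 3 libraries each. CDKN1A in the pools lies near its untreated level. SCGB2A2 and PPP1R1B are high only in the pools among these 4 groups, and GFRA1 is low only in them. ERBB2 overlaps between each pool and the treated cells, while its untreated libraries lie above those of BT-TR1 and of the treated cells.

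ERK pathway feedback genes and ETS factors, which respond to ERK activity, were higher for 7 and lower for 1 of 15 tested in both pools (medians 0.51 and 0.52). ETV5, an ETS factor of the PEA3 group, had 13.9, 12.1 and 12.3 CPM in BT-TR1, 11.6, 10.1 and 10.3 CPM in BT-TR2 and 7.12, 6.06 and 6.83 CPM in trastuzumab-treated cells. The groups were separate, with changes of 0.94 ± 0.12 in BT-TR1 and 0.67 ± 0.12 in BT-TR2. SPRED2, which inhibits RAS signalling to RAF, had 64.9, 66.3 and 65.2 CPM in BT-TR1, 64.7, 64.7 and 66.7 CPM in BT-TR2 and 39.1, 41.7 and 44.9 CPM in trastuzumab-treated cells and changed by 0.64 ± 0.09 and 0.64 ± 0.09. ETV4, of the same group as ETV5, changed by 0.71 ± 0.24 in BT-TR1 and 1.32 ± 0.23 in BT-TR2. Its BT-TR1 call was lost without BT-TR1 replicate 1 (adjusted p = 0.154, spanning 7.83e-08 to 0.466), trastuzumab replicate 2 (0.0653) or trastuzumab replicate 3 (0.0882), and its BT-TR1 value was 1.30 after GC correction. PHLDA1, a gene induced by growth factors, was the one lower in both (log2 -0.70 ± 0.21 and -0.65 ± 0.20). That call was lost without BT-TR1 replicate 2 in BT-TR1 (adjusted p = 0.0571, spanning 0.00125 to 0.447), and in BT-TR2 without BT-TR2 replicate 1 (0.12, spanning 0.00302 to 0.919), trastuzumab replicate 2 (0.0667) or trastuzumab replicate 3 (0.0728), under scaling by library size alone and with no filter.

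Immediate early genes were split, with 2 higher and 3 lower in both pools of 16 tested (medians -0.35 and 0.15). The BT-TR1 median was 0.20 after GC correction, with 7 genes higher in that pool against 3, and the BT-TR2 median was -0.12 without BT-TR2 replicate 1. The higher ones were JUN and KLF4, a zinc finger factor with log2 fold changes of 0.54 ± 0.11 and 0.32 ± 0.11. The BT-TR2 call of KLF4 was lost in 9 of 21 alternatives, among them those without any 1 BT-TR2 library and without trastuzumab replicate 1 or 3. JUN, of the AP-1 factor, had 35.6, 42.5 and 34.3 CPM in BT-TR1, 45.7, 34.4 and 35.7 CPM in BT-TR2 and 17.1, 21.4 and 17.4 CPM in trastuzumab-treated cells. Its pool levels were all above the treated ones (log2 1.01 ± 0.15 and 1.05 ± 0.15) and near the 35.4, 34.4 and 41.1 CPM of untreated cells. FOS, the usual partner of JUN, was instead lower, with 1.41, 2.35 and 1.72 CPM in BT-TR1, 2.58, 2.11 and 1.99 CPM in BT-TR2 and 5.16, 7.33 and 5.51 CPM in trastuzumab-treated cells and changes of -1.72 ± 0.27 and -1.43 ± 0.25. FOSL2, another FOS family member, had log2 fold changes of -1.22 ± 0.11 in BT-TR1 and -1.15 ± 0.11 in BT-TR2. MYC was lower as well, at -0.75 ± 0.14 and -0.66 ± 0.14, and below untreated cells in both pools (-0.52 ± 0.14 and -0.42 ± 0.14).

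The largest increases shared by the pools included secretory genes. The 12 genes with the largest shared change in each direction were chosen among those without overlap between pool and treated libraries. For these genes the lack of overlap was fixed by the choice and is no result. Among 15 tested apocrine and secretory genes, 9 were higher and 2 lower in both pools, with medians of 2.06 in BT-TR1 and 1.499 in BT-TR2. Lower ones were TFF1 and PIP, prolactin-induced protein (-1.43 ± 0.26 and -1.11 ± 0.24). SCGB2A2, mammaglobin A, a secreted protein of breast epithelium (ENSG00000110484.6, chromosome 11, 62270155 to 62273156), had 942, 1084 and 1038 CPM in BT-TR1, 1666, 1352 and 1467 CPM in BT-TR2 and 14.4, 11.2 and 9.85 CPM in trastuzumab-treated cells. Its lowest pool library was far above its highest treated library, and it rose 86.7-fold in BT-TR1 and 127-fold in BT-TR2 (log2 6.44 ± 0.17 and 6.99 ± 0.17, edgeR adjusted p = 4.86e-15 and 1.62e-15). In untreated cells it was also low, with 10.1, 11.5 and 8.89 CPM.

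AZGP1, zinc-alpha-2-glycoprotein, a marker of apocrine secretion (ENSG00000160862.12, chromosome 7, 99966720 to 99976157), had 23.9, 25.2 and 23.6 CPM in BT-TR1, 37.2, 29.2 and 33.3 CPM in BT-TR2 and 1.91, 1.86 and 0.942 CPM in trastuzumab-treated cells. Pools and treated cells were well apart, with log2 fold changes of 3.96 ± 0.23 in BT-TR1 and 4.41 ± 0.23 in BT-TR2. SCGB2A1, mammaglobin B, averaged 4.70 ± 1.11 CPM in BT-TR1, 4.36 ± 0.541 CPM in BT-TR2 and 0.728 ± 0.188 CPM with trastuzumab (SD, n = 3 each), higher in both pools. LCN2, lipocalin 2, a secreted carrier of siderophores, had 27, 19 and 16 counts in BT-TR1, 38, 28 and 23 counts in BT-TR2 and 0, 1 and 1 counts with trastuzumab. It was nearly silent in the treated cells, and the ratio of scaled counts was 56.7 (95% exact interval 15.0 to 478) in BT-TR1 and 51.2 (95% exact interval 13.8 to 430.0) in BT-TR2. SLPI, a secreted inhibitor of leukocyte protease that stood in the basal list, had 27.3, 24.9 and 26.8 CPM in BT-TR1, 16.3, 12.05 and 13.4 CPM in BT-TR2 and 4.09, 2.00 and 1.93 CPM in trastuzumab-treated cells (log2 3.31 ± 0.23 and 2.39 ± 0.23). CXCL17, a mucosal chemokine, had 111, 126 and 113 CPM in BT-TR1, 147, 127 and 131 CPM in BT-TR2 and 12.7, 9.43 and 9.52 CPM in trastuzumab-treated cells and changed by 3.47 ± 0.19 and 3.67 ± 0.19.

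S100 genes, which encode small calcium-binding proteins, were higher in both pools for 7 and lower for 1 of 12 tested (medians 0.81 and 0.94). The lower one was S100A10, the partner of annexin A2 (-0.57 ± 0.13 and -0.54 ± 0.13). Its BT-TR1 call was lost after GC correction and its BT-TR2 call under scaling by library size alone. S100P (ENSG00000163993.6, chromosome 4, 6693069 to 6697170) had 51.5, 34.5 and 31.4 CPM in BT-TR1, 45.6, 32.4 and 24.5 CPM in BT-TR2 and 2.92, 2.15 and 1.88 CPM in trastuzumab-treated cells. All pool libraries were above all treated ones, by 4.09 ± 0.27 in BT-TR1 and 3.89 ± 0.27 in BT-TR2. S100A4, linked to cell motility, had 26.1, 17.7 and 14.9 CPM in BT-TR1, 20.8, 17.9 and 16.3 CPM in BT-TR2 and 3.65, 3.52 and 2.45 CPM in trastuzumab-treated cells, with changes of 2.62 ± 0.19 and 2.52 ± 0.19. S100A8 and S100A9, whose products pair as calprotectin, stayed low but were also higher. S100A8 averaged 1.53 ± 0.108 CPM in BT-TR1, 1.12 ± 0.149 CPM in BT-TR2 and 0.196 ± 0.117 CPM with trastuzumab, and S100A9 averaged 1.07 ± 0.113 CPM, 1.03 ± 0.201 CPM and 0.188 ± 0.0815 CPM in the same groups (SD, n = 3 each).

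Of 17 tested genes of the 17q12 amplicon that carries ERBB2, 1 was higher in both pools and 0 lower, with medians of -0.14 and 0.20. That gene was PPP1R1B, which encodes DARPP-32 and lies close to ERBB2 (ENSG00000131771.13, chromosome 17, 39626740 to 39636626), with 26.9, 22.8 and 21.1 CPM in BT-TR1, 31.8, 34.5 and 33.5 CPM in BT-TR2 and 2.75, 1.86 and 1.46 CPM in trastuzumab-treated cells. It rose 11.8-fold in BT-TR1 and 16.6-fold in BT-TR2 (log2 3.56 ± 0.17 and 4.05 ± 0.17, edgeR adjusted p = 3.36e-11 and 8.26e-12). In untreated cells it had 2.14, 2.02 and 2.63 CPM. After GC correction, 3 amplicon genes were higher and 2 lower in both pools, and the BT-TR1 median was 0.25. With the block, 2 were lower in both, and without BT-TR1 replicate 3 the BT-TR1 median was 0.0021.

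Other genes with the largest shared increases had varied roles. GLYATL3, a glycine N-acyltransferase-like gene (ENSG00000203972.9, chromosome 6, 49499958 to 49527047), had 158, 130 and 99 counts in BT-TR1, 208, 241 and 223 counts in BT-TR2 and 0, 1 and 0 counts with trastuzumab. It was all but absent from the treated cells, and the ratio of scaled counts was 708 (95% exact interval 126 to 28000.0) in BT-TR1 and 774 (95% exact interval 138 to 30600.0) in BT-TR2. LINC01468, a long noncoding RNA (ENSG00000231131.6, chromosome 10, 52450874 to 52755409), had 8.83, 10.4 and 11.9 CPM in BT-TR1, 3.84, 5.10 and 4.81 CPM in BT-TR2 and 0.112, 0.342 and 0.0942 CPM in trastuzumab-treated cells. NCMAP, a membrane protein of noncompact myelin, had 13.1, 14.8 and 13.2 CPM in BT-TR1, 6.72, 5.71 and 6.28 CPM in BT-TR2 and 0.729, 0.538 and 0.424 CPM in trastuzumab-treated cells. By the rule of choice both were separate between pools and treated cells, and in both BT-TR1 lay above BT-TR2.

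SLC4A8, a bicarbonate transporter, averaged 8.18 ± 1.28 CPM in BT-TR1, 8.04 ± 0.475 CPM in BT-TR2 and 1.44 ± 0.318 CPM with trastuzumab (SD, n = 3 each). It changed by 2.50 ± 0.24 and 2.48 ± 0.24. ASS1, which joins citrulline and aspartate for arginine synthesis, had 13.5, 10.1 and 9.63 CPM in BT-TR1, 22.7, 15.8 and 19.4 CPM in BT-TR2 and 2.02, 1.95 and 2.07 CPM in trastuzumab-treated cells. It was several times higher in each pool (log2 2.46 ± 0.19 and 3.25 ± 0.18).

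**Figure D4:**
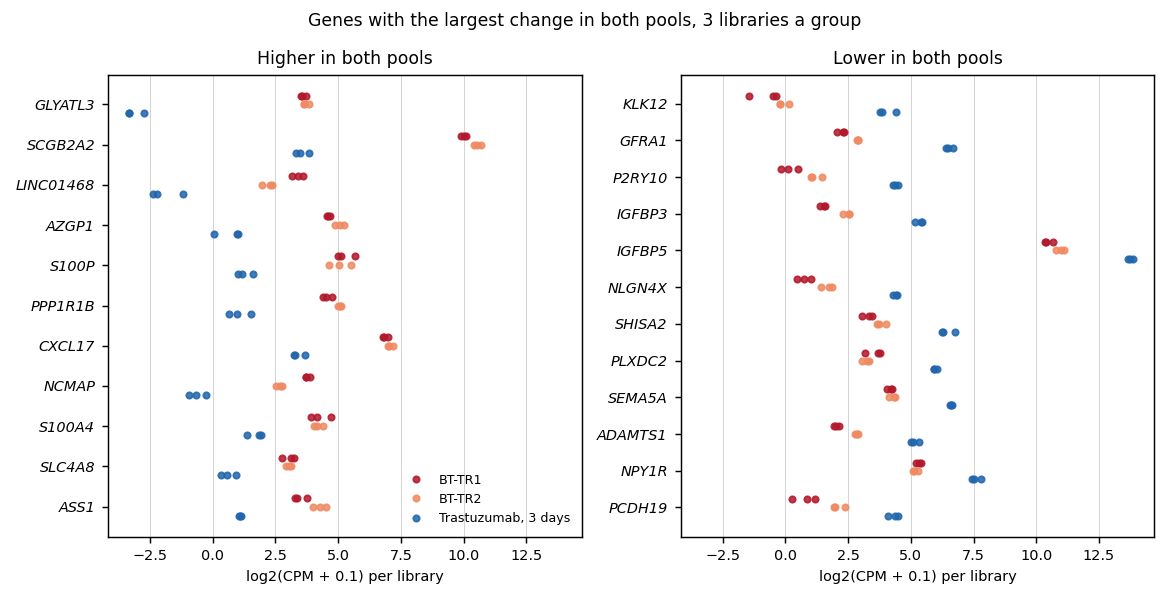
Of the 12 genes with the largest increase in both pools, the 11 reported here, and the 12 with the largest decrease in both pools, ranked by the smaller of the 2 changes. The x axis is log2(CPM + 0.1), each point is a library, and the colours mark BT-TR1, BT-TR2 and 3 days of trastuzumab, 3 libraries each. By the rule of choice no pool library overlaps a treated one.

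The 12 genes lower in both pools were ranked by the smaller of their 2 changes, and KLK12 and GFRA1 came first. All were chosen to average at least 5 CPM and to have no overlap between pool and treated libraries. KLK12, a secreted kallikrein protease (ENSG00000186474.15, chromosome 19, 51029092 to 51035230), had 0.668, 0.609 and 0.264 CPM in BT-TR1, 1.02, 0.772 and 0.769 CPM in BT-TR2 and 20.9, 14.5 and 13.4 CPM in trastuzumab-treated cells. It was close to silent in the pools (log2 -4.88 ± 0.32 in BT-TR1 and -4.24 ± 0.28 in BT-TR2). GFRA1, the receptor for GDNF that signals through RET and is a known estrogen receptor target (ENSG00000151892.14, chromosome 10, 116056925 to 116273467), had 4.75, 4.09 and 5.02 CPM in BT-TR1, 7.38, 7.36 and 7.12 CPM in BT-TR2 and 101, 89.1 and 84.2 CPM in trastuzumab-treated cells. It was 0.0503 times its treated level in BT-TR1 and 0.0797 times in BT-TR2 (log2 -4.31 ± 0.15 and -3.65 ± 0.14, edgeR adjusted p = 3.3e-13 and 1.84e-12). Untreated cells had 90.5, 85.8 and 80.3 CPM.

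IGFBP5, a secreted binding protein for insulin-like growth factors (ENSG00000115461.4, chromosome 2, 216672105 to 216695525), had 1309, 1609.7 and 1349 CPM in BT-TR1, 1785, 2025 and 2184 CPM in BT-TR2 and 13535, 14781 and 12794 CPM in trastuzumab-treated cells. Every pool library was several times lower, with log2 fold changes of -3.27 ± 0.15 in BT-TR1 and -2.78 ± 0.14 in BT-TR2. IGFBP3, a second such protein, had 2.82, 2.87 and 2.51 CPM in BT-TR1, 4.86, 5.71 and 5.77 CPM in BT-TR2 and 43.7, 35.3 and 42.2 CPM in trastuzumab-treated cells and changed by -3.87 ± 0.16 and -2.89 ± 0.15. P2RY10, a receptor for lysophospholipids, had 0.964, 1.30 and 0.792 CPM in BT-TR1, 1.98, 1.96 and 2.63 CPM in BT-TR2 and 22.1, 20.4 and 19.6 CPM in trastuzumab-treated cells. SHISA2, which in frogs and mice restrains receptor maturation in WNT and FGF signalling, averaged 9.78 ± 1.35 CPM in BT-TR1, 13.9 ± 1.81 CPM in BT-TR2 and 87.1 ± 18.6 CPM with trastuzumab. PLXDC2, a transmembrane protein, averaged 11.8 ± 2.41 CPM, 9.20 ± 0.906 CPM and 62.5 ± 3.52 CPM in the same groups (SD, n = 3 each). ADAMTS1, a secreted metalloprotease of the matrix, had 3.71, 4.26 and 3.96 CPM in BT-TR1, 6.84, 7.05 and 7.31 CPM in BT-TR2 and 39.9, 32.0 and 33.5 CPM in trastuzumab-treated cells (log2 -3.14 ± 0.17 and -2.31 ± 0.16). By the rule of choice, the pools were below the treated cells without overlap in all of these genes.

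Estrogen receptor targets were more often lower than higher. Of 23 tested, 10 were lower and 1 higher in both, with medians of -0.87 in BT-TR1 and -0.67 in BT-TR2. Only SERPINA1, alpha-1 antitrypsin (0.83 ± 0.20 and 0.89 ± 0.20), was higher. Between 8 and 10 were lower in both without each library in turn. PGR, the progesterone receptor (ENSG00000082175.14, chromosome 11, 101029624 to 101130524), had 165, 213 and 199.9 CPM in BT-TR1, 183, 219 and 211 CPM in BT-TR2 and 578, 836 and 908 CPM in trastuzumab-treated cells. All pool libraries were below all treated ones, with log2 fold changes of -2.01 ± 0.17 in BT-TR1 and -1.92 ± 0.17 in BT-TR2 (edgeR adjusted p = 5.86e-08 and 1.56e-07). The pools were also below the 451, 540.0 and 573 CPM of untreated cells (log2 -1.44 ± 0.17 and -1.35 ± 0.17). STC2, a secreted stanniocalcin, had 116, 125 and 121 CPM in BT-TR1, 135, 134 and 134 CPM in BT-TR2 and 601, 532 and 546 CPM in trastuzumab-treated cells and changed by -2.22 ± 0.13 and -2.06 ± 0.12.

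CXCL12, the chemokine ligand of CXCR4, had 11.1, 12.6 and 12.01 CPM in BT-TR1, 18.0, 15.3 and 16.5 CPM in BT-TR2 and 59.6, 57.0 and 54.6 CPM in trastuzumab-treated cells, again with no overlap. TFF1, trefoil factor 1, averaged 121 ± 26.9 CPM in BT-TR1, 151 ± 36.5 CPM in BT-TR2 and 439.9 ± 83.6 CPM with trastuzumab (SD, n = 3 each). NPY1R, a neuropeptide Y receptor induced by estrogen in breast cancer cells, had 36.3, 39.8 and 42.5 CPM in BT-TR1, 34.7, 34.0 and 39.3 CPM in BT-TR2 and 220.4, 172 and 181 CPM in trastuzumab-treated cells (log2 -2.27 ± 0.15 and -2.41 ± 0.15). All 3 were lower in both pools.

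The steroid receptors and luminal transcription factors themselves were lower for 7 and higher for 1 of 16 tested in both pools, with medians of -0.20 and -0.39, and the 1 higher became 3 after GC correction. That gene was ELF5, a factor of the alveolar lineage (0.89 ± 0.11 and 0.60 ± 0.11). ESR1, estrogen receptor alpha (ENSG00000091831.21, chromosome 6, 151656691 to 152129619), had 38.3, 40.9 and 45.5 CPM in BT-TR1, 42.8, 45.2 and 44.8 CPM in BT-TR2 and 66.4, 73.2 and 79.0 CPM in trastuzumab-treated cells. The pool libraries were all lower, at log2 -0.81 ± 0.10 in BT-TR1 and -0.72 ± 0.10 in BT-TR2 (edgeR adjusted p = 7.94e-06 and 3.76e-05). GATA3, a luminal factor that acts with it, had 60.4, 59.2 and 58.1 CPM in BT-TR1, 110.4, 83.0 and 91.6 CPM in BT-TR2 and 155, 166 and 167 CPM in trastuzumab-treated cells, with changes of -1.46 ± 0.12 and -0.78 ± 0.11, and MYB, an estrogen-regulated factor, changed by -0.76 ± 0.17 and -0.70 ± 0.17. Of 16 other luminal epithelial genes, 1 was higher and 1 lower in both (medians -0.18 and 0.32), beside 8.11% and 7.89% of all tested genes. After GC correction 4 were higher and 0 lower, with a BT-TR1 median of 0.28. Without trastuzumab replicate 1, 2 were higher. ESRP1, an epithelial splicing factor, was the higher (log2 0.79 ± 0.09 and 0.42 ± 0.09). MUC1, a cell surface mucin, was the lower (-1.10 ± 0.25 and -1.66 ± 0.26), but its BT-TR1 value was 0.29 after GC correction (adjusted p = 0.551, spanning 2.14e-11 to 0.551). Of 7 tested basal genes 1 was higher, SLPI, and 1 lower, the keratin KRT15 (-0.96 ± 0.17 and -0.62 ± 0.16), with list medians of -0.19 and -0.32; after GC correction 2 were higher and the BT-TR1 median was 0.04.

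The HER receptors gave no common pattern. ERBB2 (ENSG00000141736.13, chromosome 17, 39687914 to 39730426) had 6503, 5663 and 4167 CPM in BT-TR1, 9509, 6305 and 7287 CPM in BT-TR2 and 6521, 6206 and 5296 CPM in trastuzumab-treated cells. The groups overlapped, and the log2 difference of -0.14 ± 0.24 in BT-TR1 and 0.36 ± 0.24 in BT-TR2 was not called (edgeR adjusted p = 0.654 and 0.305). The BT-TR1 value was 0.29 after GC correction and 0.03 without BT-TR1 replicate 3. In BT-TR2, GC correction made it a call (adjusted p = 0.0422, spanning 0.0133 to 1), as did the block (0.0463). ERBB3, the kinase-impaired partner of HER2, differed by -0.15 ± 0.12 and -0.33 ± 0.12. Neither difference was called, but ERBB3 was lower in BT-TR2 in 8 of 21 alternatives, namely RLE normalization (adjusted p = 0.0441, spanning 0.00395 to 1), the strict filter, DESeq2, limma, the 9 libraries alone, the block (0.00983), GC correction (0.0172) and GC correction with the block.

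EGFR had 67.6, 78.3 and 70.9 CPM in BT-TR1, 61.6, 72.4 and 78.7 CPM in BT-TR2 and 45.0, 54.8 and 50.9 CPM in trastuzumab-treated cells, higher in both pools (log2 0.52 ± 0.13 and 0.50 ± 0.13), although without trastuzumab replicate 1 the BT-TR2 call was lost (adjusted p = 0.0501, spanning 0.000345 to 1). ERBB4, the neuregulin receptor HER4, had 5.49, 7.13 and 4.88 CPM in BT-TR1, 9.06, 8.75 and 7.82 CPM in BT-TR2 and 13.1, 12.02 and 11.7 CPM in trastuzumab-treated cells and was lower in both (-1.06 ± 0.16 and -0.52 ± 0.15). Its BT-TR2 call was lost without BT-TR2 replicate 3 (adjusted p = 0.0791, spanning 0.000926 to 1), without trastuzumab replicate 1 (0.0606), under scaling by library size alone (0.0551) and with no filter (0.0584). The list medians were -0.15 and 0.01, that of BT-TR1 being 0.16 after GC correction and that of BT-TR2 -0.08 without BT-TR2 replicate 1. Of 7 tested HER ligands 1 was lower in both pools and 0 higher (medians -0.33 and -0.62), and 2 were lower without trastuzumab replicate 1, with the block or after GC correction, which also gave 1 higher. The one lower in the main comparison was NRG3, a neuregulin that binds HER4, with 0.890, 0.522 and 1.06 CPM in BT-TR1, 1.26, 1.49 and 1.22 CPM in BT-TR2 and 3.08, 2.98 and 3.63 CPM in trastuzumab-treated cells and no overlap (log2 -2.00 ± 0.25 and -1.28 ± 0.22).

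Other receptor tyrosine kinases and their ligands were more often lower, 7 of 19 being lower and 1 higher in both pools (medians -0.97 and -0.61). The higher one was MET, the receptor of hepatocyte growth factor (0.94 ± 0.10 and 0.82 ± 0.10). MERTK, a TAM family receptor, had 8.97, 10.4 and 8.18 CPM in BT-TR1, 10.7, 8.75 and 12.4 CPM in BT-TR2 and 35.6, 34.5 and 33.5 CPM in trastuzumab-treated cells. Its pool libraries were all lower, at log2 -1.90 ± 0.15 in BT-TR1 and -1.70 ± 0.14 in BT-TR2. FGFR1, a fibroblast growth factor receptor, had 29.4, 26.6 and 22.8 CPM in BT-TR1, 53.3, 42.3 and 48.5 CPM in BT-TR2 and 108, 93.7 and 81.7 CPM in trastuzumab-treated cells and was also separate between groups (-1.84 ± 0.20 and -0.97 ± 0.20). IGF1R and GFRA1, given above, belong with them.

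Cell adhesion genes of the protocadherin and neuronal type were lower for 7 of 16 tested and higher for 0 in both pools, with medians of -1.57 in BT-TR1 and -0.89 in BT-TR2. In BT-TR1, 3 were higher and 11 lower, beside 20.3% and 19.6% of all tested genes. In BT-TR2, 0 were higher and 9 lower, beside 11.7% and 11.5%. The list held 1 gene called in opposite directions. Trastuzumab had lowered 10 and raised 0 relative to untreated cells (median -0.72), beside 3.78% and 3.71% of all tested genes. PCDH19, a protocadherin (ENSG00000165194.14, chromosome X, 100291644 to 100410273), had 1.11, 2.17 and 1.72 CPM in BT-TR1, 5.04, 3.76 and 3.85 CPM in BT-TR2 and 17.1, 22.6 and 20.5 CPM in trastuzumab-treated cells. The pools were below the treated cells without overlap (log2 -3.61 ± 0.20 and -2.25 ± 0.17), and the 34.8, 32.8 and 34.8 CPM of untreated cells was higher still. NLGN4X, a neuroligin of synapses, had 1.26, 1.91 and 1.58 CPM in BT-TR1, 2.58, 3.501 and 3.27 CPM in BT-TR2 and 22.0, 19.6 and 21.2 CPM in trastuzumab-treated cells, with changes of -3.73 ± 0.16 and -2.75 ± 0.14. CADM2, a synaptic adhesion molecule, had 0.742, 1.22 and 1.72 CPM in BT-TR1, 2.16, 1.85 and 2.31 CPM in BT-TR2 and 12.3, 10.6 and 11.97 CPM in trastuzumab-treated cells, and PCDH7, another protocadherin, had 0.445, 0.609 and 0 CPM in BT-TR1, 1.08, 1.08 and 1.15 CPM in BT-TR2 and 5.50, 5.18 and 5.79 CPM in trastuzumab-treated cells. Both were lower in every pool library. NCAM1, the neural cell adhesion molecule, averaged 1.33 ± 0.237 CPM in BT-TR1, 1.13 ± 0.368 CPM in BT-TR2 and 4.73 ± 0.843 CPM with trastuzumab (SD, n = 3 each). SEMA5A, a semaphorin that guides axons, had 18.3, 19.0 and 16.5 CPM in BT-TR1, 17.6, 20.1 and 20.7 CPM in BT-TR2 and 96.9, 100.5 and 94.9 CPM in trastuzumab-treated cells and was lower in every pool library (log2 -2.44 ± 0.10 and -2.32 ± 0.10).

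Collagens, laminins and integrins were mixed, with 3 higher and 5 lower of 27 tested in both pools (medians -0.08 and -0.11), the 3 becoming 5 after GC correction, with a BT-TR1 median of 0.07. That median was 0.08 without BT-TR1 replicate 3 and 0.01 without trastuzumab replicate 1. COL5A2 was the third higher one (1.26 ± 0.15 and 1.29 ± 0.15). Among the lower ones were COL12A1 (-1.17 ± 0.14 and -1.52 ± 0.14), LAMB1 (-0.55 ± 0.12 and -0.78 ± 0.12) and COL5A1 (-1.06 ± 0.36 and -1.04 ± 0.32). The COL5A1 calls were lost in 10 alternatives in BT-TR1 and 7 in BT-TR2, in both without trastuzumab replicate 1 or 2 and without replicate 1 or 2 of the pool, and in BT-TR1 also after GC correction and by DESeq2. LAMB3, a chain of laminin-332, had 13.9, 10.4 and 7.79 CPM in BT-TR1, 9.12, 4.48 and 4.74 CPM in BT-TR2 and 2.41, 2.05 and 1.98 CPM in trastuzumab-treated cells, higher in all pool libraries (2.33 ± 0.35 and 1.51 ± 0.35). ITGB6, the beta subunit of an integrin that activates TGF-beta, had 25.3, 34.3 and 31.7 CPM in BT-TR1, 24.7, 26.9 and 29.5 CPM in BT-TR2 and 10.9, 10.9 and 9.80 CPM in trastuzumab-treated cells, also higher throughout (1.53 ± 0.16 and 1.36 ± 0.16). ITGB8 and COL4A5, another integrin subunit and a collagen of basement membrane, were lower, ITGB8 at log2 -1.46 ± 0.30 and -1.46 ± 0.27 and COL4A5 at -2.25 ± 0.20 and -1.41 ± 0.17.

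Mesenchymal genes were likewise split, 3 higher and 3 lower of 9 tested (medians -0.77 and -0.18). CDH2, N-cadherin (-2.46 ± 0.21 and -1.69 ± 0.19), and TWIST1, a factor of mesenchymal cells (-1.71 ± 0.23 and -1.45 ± 0.22), were among the lower ones. VIM, vimentin, had 5.71, 5.13 and 4.75 CPM in BT-TR1, 6.48, 7.77 and 7.69 CPM in BT-TR2 and 27.1, 21.3 and 25.4 CPM in trastuzumab-treated cells. It was lower in both pools (-2.23 ± 0.17 and -1.75 ± 0.16), while TGFBI, a matrix protein induced by TGF-beta, had 18.9, 16.6 and 15.7 CPM in BT-TR1, 14.7, 12.9 and 13.3 CPM in BT-TR2 and 4.09, 3.47 and 3.44 CPM in trastuzumab-treated cells and was higher (2.22 ± 0.17 and 1.89 ± 0.17). LOX, which crosslinks collagen, had 6.75, 8.18 and 6.99 CPM in BT-TR1, 5.58, 8.44 and 9.43 CPM in BT-TR2 and 2.02, 0.831 and 1.55 CPM in trastuzumab-treated cells and was higher as well (2.32 ± 0.25 and 2.42 ± 0.25). SPARC, a matrix glycoprotein, had 14, 11 and 5 counts in BT-TR1, 12, 10 and 10 counts in BT-TR2 and 0, 0 and 2 counts with trastuzumab, a ratio of scaled counts of 27.4 (95% exact interval 6.96 to 237) in BT-TR1 and 18.4 (95% exact interval 4.70 to 159) in BT-TR2. Markers of other cell types were mostly below the filter. Of 9 fibroblast markers and 10 immune markers listed, 1 each was tested and neither was called, and of 7 endothelial markers 3 were tested. CDH5, VE-cadherin, was higher in both pools (3.26 ± 0.34 and 2.87 ± 0.34) at 2.60 ± 0.711 CPM in BT-TR1, 2.01 ± 0.195 CPM in BT-TR2 and 0.275 ± 0.104 CPM with trastuzumab (mean ± SD, n = 3 each). ESAM was lower (-1.12 ± 0.31 and -1.07 ± 0.29), and both ESAM calls were lost without trastuzumab replicate 1 (adjusted p = 0.0616, spanning 0.000242 to 0.123 and 0.0806, spanning 0.000126 to 0.201), while the defining marker PECAM1 was at or near 0.

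Aryl hydrocarbon receptor targets showed 1 higher and 3 lower of 8 tested in both pools (medians -0.11 and -0.39). CYP1A1, the cytochrome P450 most used as a readout of this receptor, had 19.95, 19.4 and 16.9 CPM in BT-TR1, 16.3, 16.5 and 16.5 CPM in BT-TR2 and 48.1, 38.9 and 45.1 CPM in trastuzumab-treated cells. Its pool levels were below the treated level (-1.23 ± 0.17 and -1.42 ± 0.17) but above the 5.77, 5.48 and 4.72 CPM of untreated cells (1.82 ± 0.18 and 1.63 ± 0.18). CYP1A2, its neighbour in the family, had 4, 2 and 0 counts in BT-TR1, 5, 5 and 6 counts in BT-TR2 and 23, 39 and 27 counts with trastuzumab. TIPARP, an ADP-ribosyltransferase that represses the receptor, was lower too (-0.85 ± 0.18 and -1.22 ± 0.18). NQO1, a quinone reductase also driven by NRF2, was higher, with 279, 284 and 307 CPM in BT-TR1, 182, 183 and 171 CPM in BT-TR2 and 133, 128 and 142 CPM in trastuzumab-treated cells (1.11 ± 0.10 and 0.41 ± 0.10).

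Of 20 tested genes of hypoxia and glycolysis, 5 were higher and 1 lower in both pools (medians 0.41 and 0.31). EGLN3, an oxygen-sensing prolyl hydroxylase (1.36 ± 0.08 and 0.76 ± 0.08), and PGK1, a glycolytic kinase (0.42 ± 0.11 and 0.32 ± 0.11), were among the higher ones. The BT-TR2 call of PGK1 was lost without any 1 of the BT-TR2 or trastuzumab libraries, and both of its calls were lost after GC correction. Its BT-TR1 call was also lost with replicates 2 and 3 alone. LDHA, lactate dehydrogenase A, had 808, 697 and 816 CPM in BT-TR1, 536, 619 and 615 CPM in BT-TR2 and 299, 285 and 286 CPM in trastuzumab-treated cells. HK2, hexokinase 2, had 196, 193 and 202 CPM in BT-TR1, 121, 145 and 147 CPM in BT-TR2 and 75.2, 82.4 and 83.6 CPM in trastuzumab-treated cells. Both enzymes were higher in every pool library, LDHA by 1.42 ± 0.11 and 1.02 ± 0.11 and HK2 by 1.29 ± 0.10 and 0.78 ± 0.10. NDRG1, a hypoxia-induced gene, rose by 1.05 ± 0.22 and 0.93 ± 0.22. The glucose transporter gene SLC2A1 was the one lower, with 109, 84.0 and 79.2 CPM in BT-TR1, 114, 90.5 and 96.6 CPM in BT-TR2 and 279, 217 and 222 CPM in trastuzumab-treated cells (-1.40 ± 0.21 and -1.25 ± 0.21).

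Of 21 tested genes of the ATF4 and endoplasmic reticulum stress response, 3 were lower and 0 higher in both pools, with medians of 0.0035 and -0.02. The 3 became 1 under scaling by library size alone, 5 with the block and 6 after GC correction, while 1 was higher in both with the block, 2 after GC correction and 2 with replicates 2 and 3 alone. SESN2, a stress-induced inhibitor of mTORC1, had 12.8, 9.57 and 6.203 CPM in BT-TR1, 17.2, 12.9 and 13.7 CPM in BT-TR2 and 27.1, 23.4 and 26.8 CPM in trastuzumab-treated cells, lower in both pools (-1.41 ± 0.20 and -0.82 ± 0.19), as were DDIT3, the stress factor CHOP (-0.62 ± 0.11 and -0.47 ± 0.11), and CHAC1, a glutathione-degrading enzyme (-1.74 ± 0.43 and -1.07 ± 0.37). The BT-TR1 value of CHAC1 was -1.08 after GC correction. The BT-TR2 calls of DDIT3 and CHAC1 were lost under scaling by library size alone (adjusted p = 0.0796, spanning 0.000294 to 1 and 0.0532, spanning 0.000973 to 0.361). That of CHAC1 was also lost without trastuzumab replicate 1 (0.152), trastuzumab replicate 3, BT-TR1 replicate 2 or any 1 BT-TR2 library.

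Amino acid transporters were lower for 4 of 14 and higher for 0 (medians -0.27 and -0.49), 7 being lower and 1 higher in both after GC correction. SLC7A8, which exchanges neutral amino acids, had 36.1, 33.8 and 26.5 CPM in BT-TR1, 69.3, 53.3 and 59.8 CPM in BT-TR2 and 140.3, 105 and 101 CPM in trastuzumab-treated cells (-1.84 ± 0.18 and -0.92 ± 0.17), and SLC7A2, a carrier of cationic amino acids, had 75.1, 101 and 90.8 CPM in BT-TR1, 76.0, 79.9 and 87.2 CPM in BT-TR2 and 154, 184 and 183 CPM in trastuzumab-treated cells (-0.96 ± 0.12 and -1.10 ± 0.12). Neither overlapped between pools and treated cells. SLC16A10, a carrier of aromatic amino acids, and SLC7A1, a second cationic carrier, changed by -1.54 ± 0.21 and -1.23 ± 0.19 and by -0.45 ± 0.12 and -0.47 ± 0.12.

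In the BCL2 family, which sets the threshold of apoptosis, 3 of 15 genes were lower and 1 higher in both pools (medians -0.73 and -0.18). None was lower in both under scaling by library size alone, 5 were with the block, with no filter or with replicates 2 and 3 alone, and the 1 higher became 4 after GC correction and 3 by DESeq2, with the block or without trastuzumab replicate 3. BCL2L2, which encodes the survival protein BCL-w, had 65.2, 62.1 and 62.7 CPM in BT-TR1, 56.0, 67.2 and 58.7 CPM in BT-TR2 and 38.6, 49.3 and 44.0 CPM in trastuzumab-treated cells, higher in both pools (0.53 ± 0.10 and 0.46 ± 0.10). BCL2 itself was lower (-0.93 ± 0.17 and -0.62 ± 0.17), as were the death-promoting genes BMF (-0.63 ± 0.13 and -0.47 ± 0.13) and PMAIP1 (-0.89 ± 0.17 and -0.66 ± 0.17). Scaling by library size alone ended all 3 BT-TR2 calls (adjusted p = 0.0747, spanning 7.17e-06 to 0.976, 0.0553, spanning 1.82e-05 to 1 and 0.06, spanning 2.23e-06 to 0.843). The BCL2 call in BT-TR2 was also lost without BT-TR2 replicate 1 (0.0518), trastuzumab replicate 2 (0.059) or trastuzumab replicate 3 (0.0508), and that of BMF without BT-TR2 replicate 2 (0.0502).

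Of 21 tested interferon-stimulated genes, 4 were higher and 3 lower in both pools (medians 0.37 and 0.15). The lower ones were HERC6 (-0.76 ± 0.19 and -1.23 ± 0.19), DDX60 (-0.70 ± 0.19 and -0.87 ± 0.18) and OAS3 (-1.02 ± 0.16 and -0.73 ± 0.15). The 4 higher, OAS1, OAS2, BST2 and IFIT1, all had few counts. OAS1, a sensor of double-stranded RNA, had 11, 15 and 8 counts in BT-TR1, 20, 21 and 21 counts in BT-TR2 and 1, 1 and 4 counts with trastuzumab. IFIT1 averaged 1.15 ± 0.421 CPM in BT-TR1, 0.927 ± 0.0930 CPM in BT-TR2 and 0.245 ± 0.117 CPM with trastuzumab (SD, n = 3 each). BST2 overlapped between groups, and its BT-TR1 call was lost in 13 of the 20 alternatives in which it was tested. Under a stricter filter, which set such low genes aside, 2 were higher in both.

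Genes of MHC class I and peptide loading had 0 higher and 1 lower of 9 tested (medians 0.03 and -0.32), the BT-TR1 median being -0.10 without BT-TR1 replicate 1 and -0.13 without trastuzumab replicate 3. The lower was the chaperone CALR (-0.53 ± 0.15 and -0.65 ± 0.15), whose BT-TR1 value was -0.26 after GC correction (adjusted p = 0.243, spanning 0.000669 to 0.849), the call being lost too without BT-TR1 replicate 1 (0.0601) or trastuzumab replicate 1 (0.0598). In the Notch pathway 1 of 15 was lower in both pools and 0 higher (medians -0.34 and -0.09), 3 being lower with the block, 4 with replicates 2 and 3 alone and 2 by DESeq2 or limma. After GC correction 2 were lower and 1 higher, with a BT-TR1 median of 0.02. The gene lower in both was the ligand JAG1, with 1.71, 2.17 and 2.11 CPM in BT-TR1, 1.62, 1.49 and 2.63 CPM in BT-TR2 and 8.41, 7.87 and 6.60 CPM in trastuzumab-treated cells and no overlap (-1.94 ± 0.21 and -2.00 ± 0.20).

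Cytosolic ribosomal proteins, 40 tested, had 0 higher and 0 lower in both pools by edgeR's test, against 1 and 0 at an unadjusted p under 0.05 and 0 and 0 by DESeq2. With the block 1 was higher and 2 lower, after GC correction 2 were higher, and without trastuzumab replicate 1 1 was higher. BT-TR1 had 1 higher and 9 lower (median -0.19) and BT-TR2 2 higher and 0 lower (median 0.06). Of all tested genes, 20.3% were higher and 19.6% lower in BT-TR1, and 11.7% and 11.5% in BT-TR2. The RPS27A gene had 241 ± 20.2 CPM in BT-TR1, above the 138 ± 16.1 CPM with trastuzumab (SD, n = 3 each). It was not called in BT-TR2 except with the block (adjusted p = 0.0443, spanning 0.0209 to 1), with GC correction and the block, and without trastuzumab replicate 1 (0.0489). RPS19 was lower in BT-TR1 (-0.78 ± 0.23), a call lost without BT-TR1 replicate 3 (adjusted p = 0.0853, spanning 1.01e-06 to 0.352) or trastuzumab replicate 1 (0.0672). Of the 13 mitochondrially encoded proteins, none was called in either pool by edgeR's test (at an unadjusted p under 0.05, 3 in BT-TR1 and 3 in BT-TR2; by DESeq2, 2 and 2), with medians of -0.15 and -0.39. With the block, 3 were lower in both pools, and without trastuzumab replicate 1 the BT-TR1 median was 0.24.

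**Figure D5:**
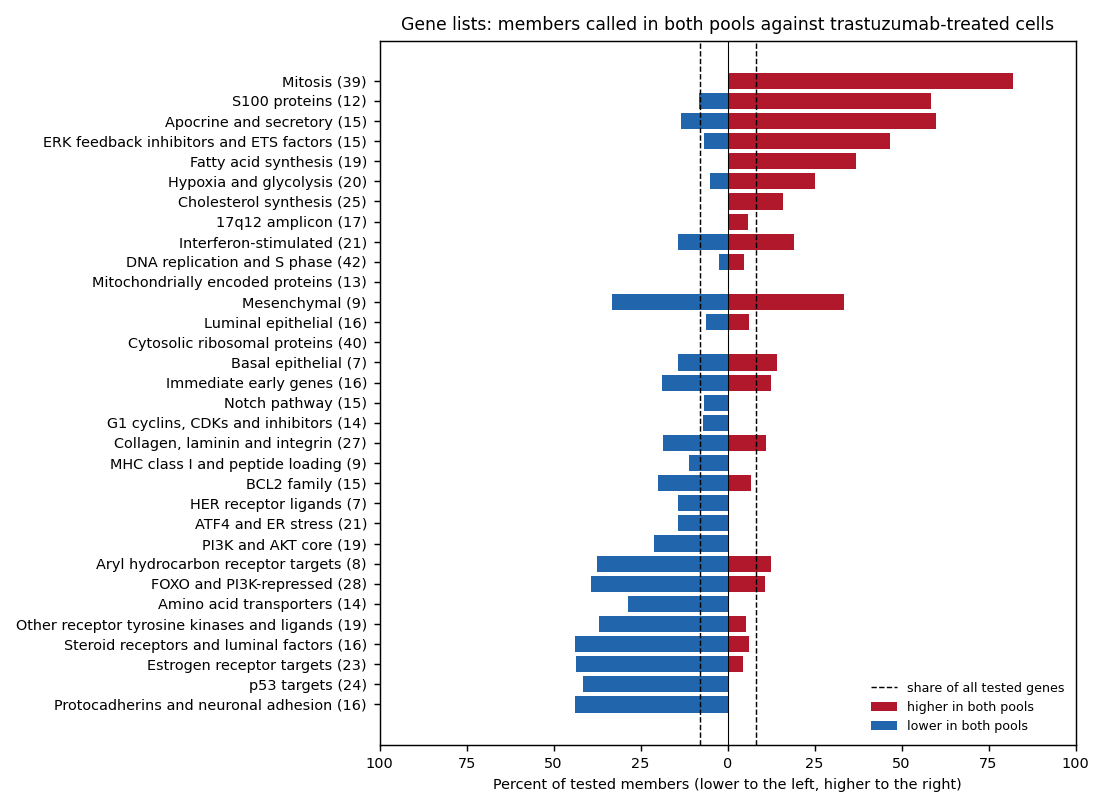
Share of each gene list's tested members, in percent, that were higher (bars to the right) or lower (bars to the left) in both pools than in trastuzumab-treated cells, with the number tested in brackets and lists under 7 tested genes left out. Dashed lines mark the shares over all tested genes, 8.11% higher and 7.89% lower. Mitosis, apocrine and S100 genes reach farthest to the right, and adhesion, steroid receptor, estrogen receptor target and p53 target genes to the left.

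The lists were chosen with earlier results of these data known, so their counts describe these libraries and are no independent evidence of a direction. The comparison between the pools themselves called 3129 genes (17.7% of those tested), and its log2 fold change, BT-TR2 over BT-TR1, correlated with GC content at r = 0.629 across 17554 genes.

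The 9 genes called in opposite directions came from comparisons that share the 3 treated libraries, and their number depended on the setting. It was 328 with the block, 84 with no filter, 83 with GC correction and the block, 66 with replicates 2 and 3 alone and 30 without BT-TR1 replicate 1. The 6 named each had a call that was lost in some alternatives. CNTN1, contactin 1, an adhesion molecule of neurons, had 13.4, 17.4 and 17.4 CPM in BT-TR1, 4.98, 5.46 and 5.71 CPM in BT-TR2 and 7.12, 7.43 and 8.10 CPM in trastuzumab-treated cells. BT-TR1 was above and BT-TR2 below the treated cells (1.08 ± 0.16 and -0.49 ± 0.16), but the BT-TR2 call was lost without any 1 of the 3 BT-TR2 libraries (adjusted p = 0.109, spanning 0.00742 to 1, 0.0751 and 0.0553) and without trastuzumab replicate 2 or 3. The tumour suppressor DIRAS1, a small GTPase, showed the reverse order (-0.47 ± 0.16 and 0.49 ± 0.15), and its BT-TR1 value was 0.07 after GC correction. Its BT-TR1 call was lost in 8 of 21 alternatives, among them without BT-TR1 replicate 2 or 3 or trastuzumab replicate 2. Its BT-TR2 call was lost in 9, among them after GC correction and without BT-TR2 replicate 1 or 2 or trastuzumab replicate 1 or 3. GLMN, a regulator of cullin ligases (0.43 ± 0.15 and -0.53 ± 0.15), ACER3, an alkaline ceramidase (0.46 ± 0.12 and -0.46 ± 0.12), and KLHL7, a ubiquitin ligase adaptor (0.47 ± 0.10 and -0.41 ± 0.10), lost their BT-TR1 calls after GC correction (adjusted p = 0.299, spanning 0.00412 to 1, 0.319, spanning 0.000105 to 1 and 0.0597, spanning 5.55e-05 to 1). CREG1, a secreted glycoprotein (0.52 ± 0.12 and -0.37 ± 0.12), lost its BT-TR2 call then (0.0539, spanning 0.0079 to 1) and in 11 of 21 alternatives in all, among them without any 1 of the BT-TR2 libraries and without trastuzumab replicate 1 or 3. The BT-TR1 call of GLMN was lost too without BT-TR1 replicate 2 or 3 or trastuzumab replicate 1 or 2, and its BT-TR2 call without BT-TR2 replicate 1 or 3 or trastuzumab replicate 3. Under scaling by library size alone, the BT-TR2 calls of all but DIRAS1 among these 6 genes were lost.

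Genes called in both pools were set beside all tested genes in level, gene type and chromosome. Their median level over the 9 libraries was 23.2 CPM where higher and 8.35 CPM where lower, against 12.7 CPM over all tested genes. That level comes from the same counts as the calls and is not independent of them. Protein-coding genes made up 80.4% of those higher and 81.2% of those lower, against 71.4% of all tested genes. By chromosome, the share higher in both pools was 12.9% on chromosome 2, 11.7% on 12 and 11.1% on 21, beside 8.11% over all. It was 16.7% on chromosome Y, which is 2 of the 12 genes tested there. Whether their reads came from Y or from similar sequences elsewhere was not tested. The share lower was 11.5% on chromosome 7, 11.1% on 18, 10.6% on 21 and 10.4% on 1, beside 7.89% over all. Over all tested genes, called or not, 2283 (12.9%) had all 6 pool libraries above the 3 treated ones and 2165 (12.3%) had all below.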

How the data were processed

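RNA was sequenced from BT474 cells and derived resistant pools in 21 libraries. Raw read counts per gene were deposited by the authors, made with Bowtie2 and featureCounts on hg38 per the submitters' processing notes. The authors also deposited variance-stabilized values on a log2 scale, which the same notes credit to DESeq2. Versions of these tools and strandedness are not given in the sources used here, so reads of a gene and of an overlapping antisense gene cannot be told apart.

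The deposited counts were read into edgeR 4.0.16 under R 4.3.3. After the group-wise filterByExpr filter (a minimum count of 10 and a minimum total of 15) and TMM normalization, all 21 libraries entered 1 quasi-likelihood fit with a term per group and 14 residual degrees of freedom. Each pool was tested against trastuzumab-treated cells with Benjamini-Hochberg adjustment over 17650 genes, at an adjusted p under 0.05. Chi-square per degree of freedom was 5.85 to 6.5 between replicates 2 and 3 of a group and 14.6 to 83.2 in pairs with replicate 1. Sampling noise alone gives about 1, so replicate spread set the precision. Deviations of replicate 1 from its group mean correlated with GC content at 0.512 in BT-TR1, 0.567 in BT-TR2 and 0.302 with trastuzumab. Those of replicates 2 and 3 did so at -0.453 to -0.00662. The cause was not tested. Intervals of ratios are exact at 95%. Positions and GC content came from GENCODE 29 (GRCh38), which gave a GC value for 17554 tested genes. The scripts were tested on simulated counts.

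Replicate numbers counted as paired where the deviations from the group means correlated at 0.1 or more for each matched pair. BT-TR2 and trastuzumab libraries met this (0.435, 0.165 and 0.265), and those of BT-TR1 did not (0.348, 0.0806 and 0.302). Unmatched pairs were not looked at by this rule. BT-TR2 replicate 2 correlated at 0.236 with trastuzumab replicate 3, above its matched 0.165, and BT-TR2 replicate 3 at 0.151 with trastuzumab replicate 2. The labels state no pairing.

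Named genes were, of those called in both pools, with a symbol, at least 5 CPM and no overlap between pool and treated libraries, the 12 with the largest smaller change in each direction. Named too were the 6 most different genes called in opposite directions and 11 genes in every case. Of each list, up to 4 genes called in both pools with the largest smaller change were named. Where a list had none, up to 2 called in 1 pool with the largest change were. Not every gene the rule names is described, and 1 of the 12 higher genes is not reported here. The libraries compared, the 36 gene lists and the rule were chosen with earlier results of these data known.

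Alternatives were RLE normalization, library size alone, no filter, a strict filter (1 CPM in 3 libraries), DESeq2 1.42.0, limma 3.58.1 on the deposited log2 values, the 9 libraries alone, replicate number as a block, a GC correction (spline with 5 degrees of freedom), this correction with the block, replicates 2 and 3 alone, a test against a fold of 1.5, and leaving out each library. Counting list members under each alternative was chosen after seeing the data.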

Additional observations from a re-analysis of the deposited data

Results flagged for a closer look

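In 7 named genes the pools differed from each other by at least 1 on the log2 scale under the same comparison with trastuzumab-treated cells, each at an edgeR adjusted p under 0.05 for the difference itself. The difference, BT-TR2 minus BT-TR1, was -1.17 for LINC01468, -1.13 for NCMAP and -1.12 for STARD4. All 3 were higher in both pools than in trastuzumab-treated cells, and BT-TR1 was farther from them. It was 1.06 for P2RY10, 1.35 for PCDH19 and 1.47 for PCDH7, which were lower in both pools, again farther in BT-TR1. For CNTN1 it was -1.57, with BT-TR1 above and BT-TR2 below the treated cells. The PCDH7 and P2RY10 differences were lost without BT-TR1 replicate 3, and that of PCDH7 also without BT-TR2 replicate 1. That of CNTN1 kept its call under all 21 alternatives. The other 6 were not called against a fold of 1.5.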

How the results depend on the processing

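Tested against a fold of 1.5, BT-TR1 had 711 genes higher and 839 lower, BT-TR2 412 and 486, and both pools 304 and 355. With replicate number as a block, BT-TR2 had 3956 higher and 3403 lower and both pools 2579 and 2354, while genes called in opposite directions went up to 328. By the rule of 0.1 for each matched pair, the numbers did not pair BT-TR1 with the treated libraries. GC correction gave 3239 higher in BT-TR2 and 2325 in both pools, and with the block 4371 and 3774 in BT-TR2 and 3132 and 2533 in both. In BT-TR1, GC correction without the block gave 3904 higher and 2911 lower. It kept 80.7% of the main BT-TR1 calls that were higher and 68.2% of those that were lower. Of the BT-TR2 calls it kept 97.3% and 98.3%. Without each library in turn, BT-TR1 had 2577 to 3762 higher and 2171 to 3589 lower, with 2171 without BT-TR1 replicate 3, its shallowest library. BT-TR2 had 1457 to 2111 higher and 1557 to 2045 lower, and both pools 1067 to 1337 higher and 1084 to 1274 lower. Scaling by library size alone moved the BT-TR2 median to 0.11 and the share of its calls that were higher to 59.8%, against 50.3%. Signs reversed in BT-TR1 after GC correction, without and with the block, for DIRAS1 (log2 0.0749 and 0.11), MUC1 (0.29 and 0.20), ERBB2 (0.29 and 0.28) and ERBB3 (0.0258 and 0.0222), none of them called with the other sign except ERBB2 with the block (edgeR adjusted p = 0.0227). They also reversed for ERBB2 in BT-TR1 without BT-TR1 replicate 3 (-0.2663 to 0.0300 without each library in turn), for RPS19 in BT-TR2 without BT-TR2 replicate 1 (-0.0301 to 0.3196), and for PIK3CA in BT-TR2 without BT-TR2 replicate 3 (-0.0035) or trastuzumab replicate 1 (-0.0576, the lowest), none of these being called. The cause was not tested. By limma on the deposited log2 values, genes of few counts had smaller log2 fold changes in BT-TR1 and BT-TR2, such as 1.83 and 1.57 for CDH5 and -3.79 and -3.39 for KLK12, all called. Depth limits genes of few counts, such as FAS, LCN2, OAS1, OAS2 and BST2, whose fitted changes depend on 1 to 6 reads in a group.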
